A study of Drosophila melanogaster with 10 samples.

Results

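The libraries described here are the controls of 2 separate experiments in one study of transposon control in OSCs, which are cultured somatic cells derived from the fly ovary. They were chosen by their labels and number 5 of the 10 small RNA libraries. The 3 siLuc libraries came from wildtype OSCs that received an siRNA against luciferase at 0 h and again at 48 h and were harvested at 96 h. The 2 Gal4 libraries came from OSCs that carried UAS sites, the DNA targets of the yeast protein Gal4, inserted upstream of the promoter of the piRNA cluster flamenco. The study's methods describe this line as a single-cell clone that is homozygous for the insertion and holds a GFP reporter in its selection cassette. These cells were transfected with a plasmid encoding Gal4 alone, transfected again after 48 h, and harvested at 6 and 7 days, and the labels do not say which library belongs to which day. One label calls these cells FACS sorted, whereas the treatment label and the methods state that no FACS enrichment was used for cells with Gal4 alone. Neither group was depleted of a piRNA factor or had flamenco silenced by a tethered domain. The comparison therefore asks how far cells of the tethering clone with Gal4 alone carried the same transposon piRNAs as the luciferase control cells of the siRNA experiment. Cell line history, transfected material, harvest time, 3′ adaptor and sequencing depth all differed between the groups, so their parts in any difference cannot be told apart.

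PIWI-interacting RNAs, or piRNAs, are small RNAs that guide PIWI proteins to transposon transcripts. Somatic cells of the fly ovary use the PIWI protein Piwi alone and have no ping-pong amplification, and most of their piRNAs are cut from long single-stranded transcripts. The main source of these is flamenco, a locus packed with fragments of LTR retrotransposons that mostly lie antisense to its transcription. Its piRNAs therefore pair with nascent transposon transcripts, and antisense piRNAs direct the silencing of an element. The study proposes that sense piRNAs of copia and springer can also act, where an insertion lies antisense in an intron of a transcribed gene. Genetic work first tied flamenco to the control of gypsy, ZAM and Idefix, retroviruses of the gypsy superfamily that are active in follicle cells. Sense small RNAs against an element come from transcripts in the orientation of the element itself, such as its own mRNA.

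The deposited files give the coverage of each consensus position by reads of 24 to 35 nt on each strand for 122 elements, and element names that consist of digits are set in quotation marks. Values were used only as measures that do not depend on the scaling of a library. These were the share of an element and strand in all transposon coverage of its library, the split between strands, and the profile along the element. Divided by the longest read of 35 nt, coverage gives a lower limit for reads, which was 1450314 and 2153331 transposon reads in the Gal4 libraries and 16503790 to 18325075 in the siLuc libraries. Values rise in steps of 0.5 read, and these steps imply 87066 and 110492 miRNA reads in the Gal4 libraries and 1297626 to 1799370 in the siLuc libraries. The files hold transposons only, so markers of the cell type could not be checked. The labels do not say whether libraries of a group came from separate cultures, and p-values measure the spread between these libraries. In antisense share on the log2 scale, the median element differed by 0.03 to 0.04 between siLuc libraries and by 0.15 between the Gal4 libraries. Between a Gal4 and a siLuc library it differed by 0.28 to 0.38. The tests of shares, strands and bins used 1 spread pooled over both groups, although the shallower Gal4 libraries differed more from each other.

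The antisense strand carried 89.9% and 90.5% of transposon coverage in the Gal4 libraries and 91.5%, 91.6% and 91.4% in the siLuc libraries. Both Gal4 values lay below all siLuc values, by 1.31 percentage points in the mean, and the exact permutation p of 0.1 (two-sided) was the smallest that 2 against 3 libraries can give. The 10 most abundant elements of each library held 66.4% and 63.8% of antisense coverage in Gal4 and 67.4%, 67.1% and 67.4% in siLuc, again with p = 0.1 in the exact permutation test. The mean difference of 2.27 percentage points became 0.96 without Gal4 replicate 2 and 3.57 without Gal4 replicate 1. Antisense coverage was thus spread over somewhat more elements in the Gal4 libraries. The effective number of elements, the inverse of the summed squared shares, was 17.2 and 18.6 in Gal4 and 14.9, 14.9 and 14.7 in siLuc.

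Antisense shares were compared for the 66 elements with a mean siLuc coverage of at least 10 per nt. The element just inside this limit was Repbase_FB4 at 10.4 and the one just outside was invader1 at 8.91. Tested with limma on log2 shares at a Benjamini-Hochberg adjusted p of 0.05, 32 elements were higher and 16 lower in Gal4. Together these 48 elements are 72.7% of those tested, with 48.5% higher and 24.2% lower. In each of the 48 the Gal4 and siLuc libraries did not overlap, which was so for 80.3% of the elements tested. Most changes were small, with a median size of 0.39 among the called elements, and the range over all elements ran from -2.55 to 0.88. Without siLuc replicate 1 the higher elements numbered 20.

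The median element was 0.18 higher in Gal4 on the log2 scale. Scaling by the median ratio between libraries brought this median to 0.04 and gave 19 higher and 17 lower elements. Per 1000000 miRNA reads the median was 0.81, and 50 elements were higher and 1 lower. On that scale the libraries differed as a whole, with a summed transposon coverage of 5.83e+08 and 6.82e+08 nt in Gal4 and of 4.54e+08, 4.45e+08 and 3.25e+08 nt in siLuc. A share says nothing of this total, and every direction given below is a direction of shares. Taking also shares of the antisense strand alone, McClintock was the only element called lower under all 4 scalings and 19 elements were called higher under all 4. Of the 16 with a lower share only McClintock and 3S18 also had a negative value per miRNA, and theirs was negative under all 4.

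**Figure D1:**
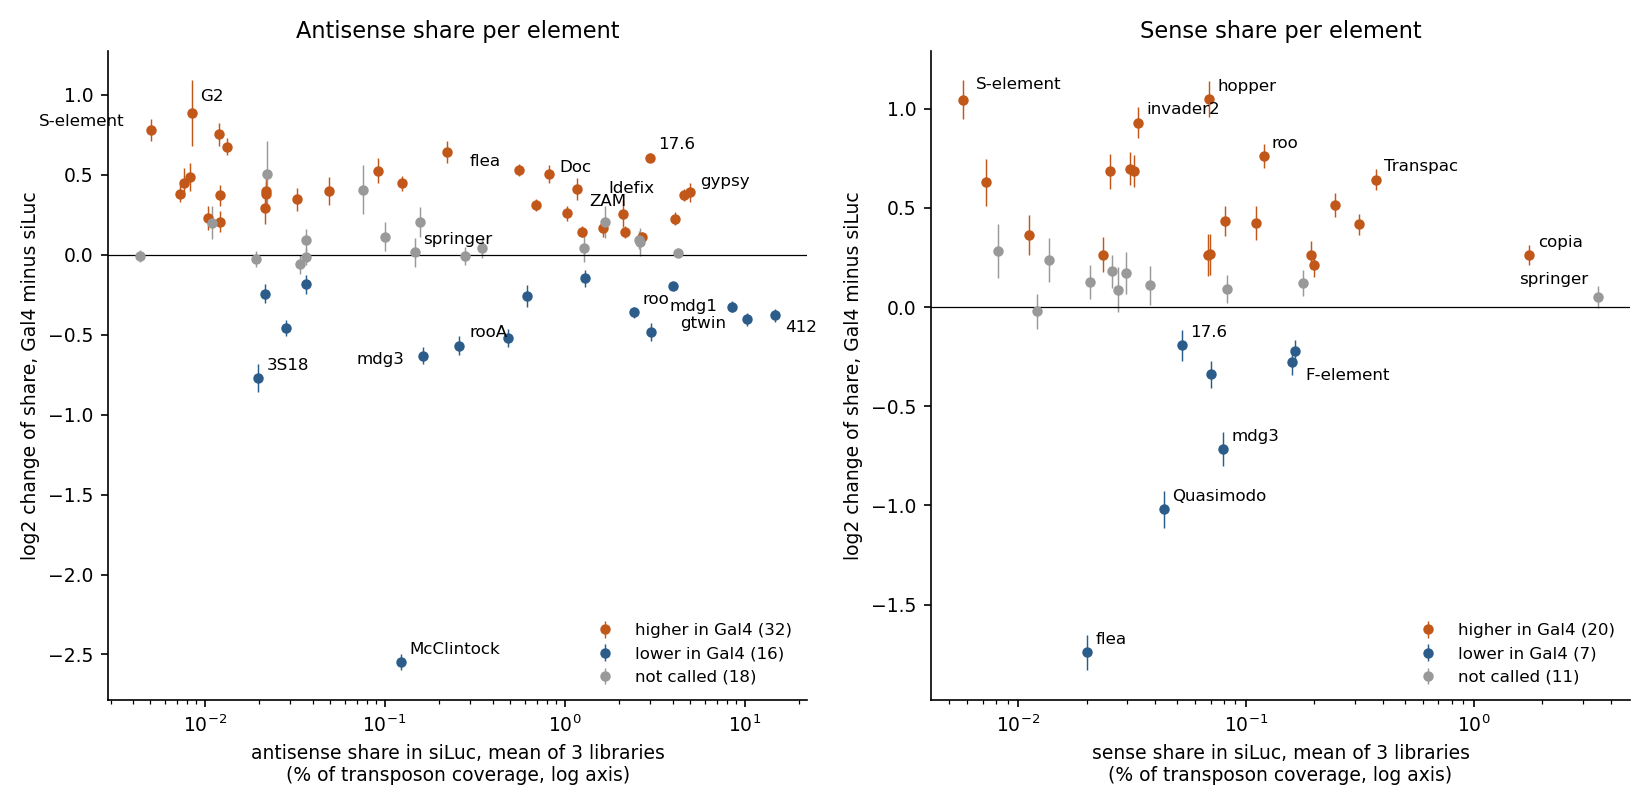
Change of each element's share of transposon coverage between Gal4 (2 libraries) and siLuc (3 libraries) on the log2 scale, with its standard error, against its mean siLuc share on a log axis, for 66 elements on the antisense strand (left) and 38 on the sense strand (right). Most points lie within 1 log2 unit of 0, with McClintock at -2.55 on the antisense strand and flea at -1.74 on the sense strand far below the others.

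The genetically defined flamenco targets all held a larger antisense share in the tethering clone. Together gypsy, ZAM and Idefix made up 14.2% and 13.9% of transposon coverage in the Gal4 libraries and 10.8%, 10.8% and 10.7% in the siLuc libraries. For gypsy the antisense share was 7.00% and 6.12% in Gal4 and 5.07%, 4.94% and 4.94% in siLuc, a log2 change of 0.39 ± 0.06 (SE, limma adjusted p = 0.00203). With median-ratio scaling the change of gypsy was 0.25 and was not called (adjusted p = 0.0529). Idefix rose by 0.37 ± 0.04, from 4.52%, 4.67% and 4.60% in siLuc to 5.78% and 6.14% in Gal4 (adjusted p = 0.000606). ZAM, which is less abundant, was at 1.45% and 1.67% against 1.19%, 1.19% and 1.13%, a change of 0.41 ± 0.07 (adjusted p = 0.0033). The groups did not overlap for any of the 3 elements, and each was called in a table in which 48.5% of elements were called higher.

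The 3 elements with the most antisense piRNAs in both groups, '412', gtwin and mdg1, took a smaller share in the clone. All are LTR retrotransposons of the gypsy superfamily. Element '412' held 11.8% and 10.9% of transposon coverage in the Gal4 libraries and 14.7%, 14.8% and 14.9% in the siLuc libraries, a log2 change of -0.38 ± 0.04 (SE, limma adjusted p = 0.000606). The share of gtwin was 8.15% and 7.48% in Gal4 against 10.5%, 10.2% and 10.3% in siLuc, a change of -0.40 ± 0.04. For mdg1 it was 7.03% and 6.56% against 8.47%, 8.47% and 8.57%, a change of -0.32 ± 0.04. The order of the 3 was the same in both groups, followed by gypsy and Idefix at the fourth and the fifth rank. Per 1000000 miRNA reads the 3 elements had positive values of 0.24 to 0.32, none of them called.

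McClintock, another LTR retrotransposon of the gypsy superfamily, differed most. Its antisense share was 0.0211% in both Gal4 libraries and 0.128%, 0.123% and 0.122% in the siLuc libraries. The group mean in Gal4 was 0.17 times that in siLuc, a log2 change of -2.55 ± 0.05 (SE, limma adjusted p = 9.07e-07), and it stayed between -3.02 and -1.86 under every alternative tried. Read support for McClintock on this strand was at least 306 reads in the first Gal4 library and 23389 in the first siLuc library. Its sense share moved the other way, at 0.0156% and 0.0129% in Gal4 and 0.00797%, 0.00797% and 0.00838% in siLuc, below the coverage limit for a test. As a result only 57.6% and 62.0% of McClintock coverage was antisense in Gal4, against 94.1%, 93.9% and 93.6% in siLuc. The remaining libraries of each experiment lay with their own controls. In the tethering clone with the silencing domain fused to Gal4 (Gal4-Panx-IDR) 57.0% and 60.4% of McClintock coverage was antisense, and in wildtype cells depleted of Armi (siArmi) 97.5%, 96.8% and 97.4%.

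Beyond McClintock, the largest decreases of antisense share were those of mdg3 and of 3S18 and rooA, from the BEL/Pao group of LTR retrotransposons. Element 3S18 of that group was at 0.0107% and 0.0126% in Gal4 and 0.0209%, 0.0197% and 0.0191% in siLuc, a log2 change of -0.77 ± 0.09. Its relative rooA was at 0.182% and 0.167% against 0.267%, 0.252% and 0.256%. For roo itself, the best known member of the group, the values were 1.93% and 1.85% against 2.45%, 2.39% and 2.43%, a change of -0.36 ± 0.03 (limma adjusted p = 0.000594). All 3 tested members of this group were lower as shares, whereas their median per 1000000 miRNA reads was 0.07. The gypsy superfamily element mdg3 fell by 0.63 on the log2 scale, from 0.164%, 0.161% and 0.167% in siLuc to 0.103% and 0.109% in Gal4. Next came Helena, a non-LTR retrotransposon, at -0.52, gypsy2_new at -0.48 and Transpac at -0.46. The decreases of these elements were larger than that of roo. All 5 Gal4 and siLuc libraries were separated by group for each of these elements. Per miRNA read, values were positive for all of them except 3S18, which had -0.12 and was not called.

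The clearest increase among abundant elements was that of '17.6', a gypsy superfamily element. It held 4.54% and 4.58% of transposon coverage as antisense reads in Gal4 and 3.01%, 3.03% and 2.94% in siLuc, a log2 change of 0.61 ± 0.03 (SE, limma adjusted p = 5.54e-05), and moved from rank 10 to rank 7. The antisense share of flea, of the same superfamily, was 0.797% and 0.817% against 0.556%, 0.552% and 0.570%, a change of 0.53 ± 0.04. Tirant, an endogenous retrovirus of low coverage in these libraries, was at 0.0271% and 0.0304% against 0.0227%, 0.0223% and 0.0210%. The study found no Tirant in its assembly of the OSC genome, and the source of these reads was not tested. HMS-Beagle went the other way with a change of -0.15 ± 0.05, close to the limit of the test (adjusted p = 0.0482), and was not called as a share of the antisense strand alone (adjusted p = 0.0781). The antisense share of springer did not separate the groups, with 0.136% and 0.163% in Gal4 around the 0.141%, 0.149% and 0.152% of siLuc.

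Several LINE elements, which are retrotransposons without LTRs, also had a larger antisense share in the clone. The I-element, known from hybrid dysgenesis, was at 0.367% and 0.328% in Gal4 and 0.229%, 0.225% and 0.212% in siLuc, a log2 change of 0.64 ± 0.07 (SE, limma adjusted p = 0.000609). Doc was at 1.10% and 1.23% against 0.823%, 0.829% and 0.800%, and jockey at 0.142% and 0.122% against 0.0936%, 0.0904% and 0.0906%. The largest single increase, 0.88 ± 0.21 for G2, rested on few reads, at least 177 in the first Gal4 library, and its Gal4 values of 0.0122% and 0.0204% were far apart. Without siLuc replicate 1 it was not called (adjusted p = 0.0596), nor with the median over positions (0.29, adjusted p = 0.536). Its relative G4 had closer values of 0.0207% and 0.0222% against 0.0134%, 0.0135% and 0.0133%. Among DNA transposons, the S-element rose by 0.78 ± 0.07 and transib4 by 0.75 ± 0.07, from siLuc shares of 0.00475% to 0.00523% for the S-element and of 0.0120% to 0.0121% for transib4. With the median over positions in place of the sum, neither was called, at 0.11 (adjusted p = 0.60) and 0.35 (adjusted p = 0.20).

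By group, the 33 tested members of the gypsy superfamily were divided, with 13 higher, 10 lower and 10 not called, and a median log2 change of 0.09 beside 0.18 over all 66 elements. This median became -0.05 with median-ratio scaling and 0.73 per 1000000 miRNA reads. Over all 66 elements 48.5% were higher and 24.2% lower. Of 16 LINE elements 9 were higher, 2 lower and 5 not called, with a median of 0.30. Of 8 DNA transposons with terminal inverted repeats 6 were higher and 2 not called, with a median of 0.37. In the copia superfamily 2 of 3 were higher and 1 was not called. The gypsy superfamily as a whole held 82.0% and 82.3% of transposon coverage as antisense reads in Gal4 and 83.6%, 83.8% and 83.5% in siLuc.

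**Figure D2:**
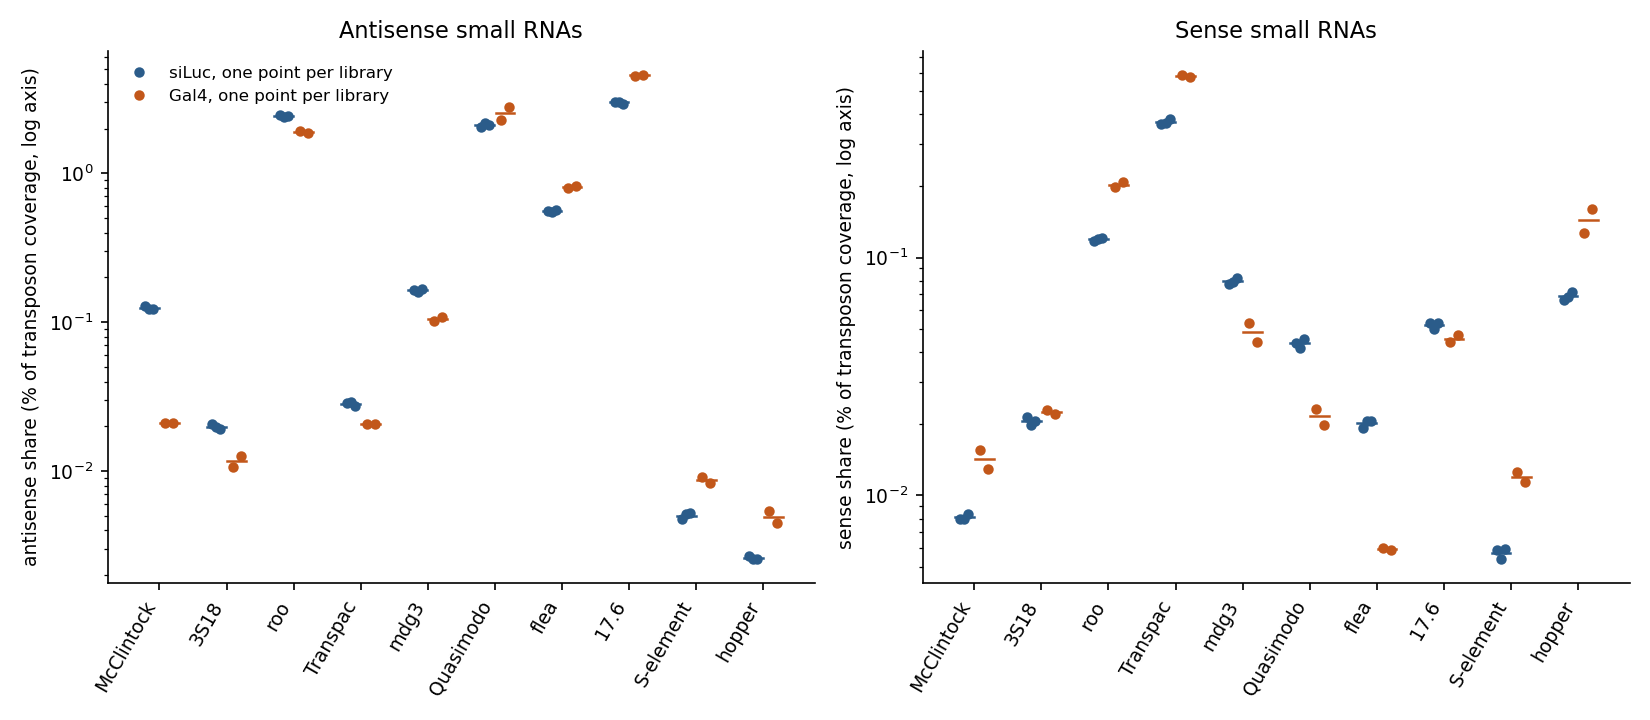
Antisense (left) and sense (right) share of transposon coverage, in percent on a log axis, of 10 elements in each library, with a bar at the mean of the 3 siLuc and of the 2 Gal4 libraries. McClintock differs by strand, with 0.0211% against 0.122% to 0.128% on the antisense strand and higher Gal4 values on the sense strand, and flea shows the opposite order.

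Sense shares were compared for 38 elements, from Repbase_Chimpo with a siLuc coverage of 10.2 per nt upward, with gypsy at 9.55 just outside. Of these 20 were higher and 7 lower in Gal4, together 71.1% of those tested, with 52.6% higher and 18.4% lower. Again no called element had overlapping groups, and 81.6% of all those tested had none. The split was 11 higher and 9 lower when shares were taken of the sense strand alone or with median-ratio scaling, and 31 and 1 per 1000000 miRNA reads, which puts the median element at 0.06, 0.01 and 0.87 instead of 0.26.

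The sense strand was dominated by springer and copia, which together held 59.4% and 57.4% of sense coverage in Gal4 and 61.9%, 61.8% and 61.6% in siLuc. The sense share of springer, a gypsy superfamily element, was 3.82% and 3.45% of all transposon coverage in Gal4 and 3.53%, 3.44% and 3.56% in siLuc, and the groups overlapped. As a share of the sense strand alone springer was lower in Gal4, with a log2 change of -0.16 (adjusted p = 0.000921, limma), whereas per 1000000 miRNA reads it was higher by 0.70 (adjusted p = 0.00684). Without Gal4 replicate 2 its share of all coverage was called higher, at 0.12 (adjusted p = 3.19e-06). Copia, which gives its superfamily its name, was at 2.20% and 2.01% against 1.75%, 1.74% and 1.76%, a log2 change of 0.26 ± 0.05 (SE, limma adjusted p = 0.000838) that fell to 0.06 and was not called when taken of the sense strand (adjusted p = 0.0509). For Transpac, the third in rank, sense shares were 0.586% and 0.574% against 0.363%, 0.370% and 0.382%. Its sense change of 0.64 ± 0.05 was opposite to its antisense change of -0.46 ± 0.05.

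The largest decrease of sense reads was that of flea. Sense shares of flea were 0.00599% and 0.00590% in Gal4 and 0.0191%, 0.0207% and 0.0206% in siLuc, a log2 change of -1.74 ± 0.09 (SE, limma adjusted p = 3.03e-08). It was the only element with a lower sense value under all 4 scalings that was called each time, and per 1000000 miRNA reads its change was -1.02. Sense reads of Quasimodo, a gypsy superfamily element, were also fewer, with shares of 0.0232% and 0.0198% against 0.0437%, 0.0415% and 0.0455% and a change of -1.02 ± 0.09. Those of mdg3 were at 0.0530% and 0.0440% against 0.0776%, 0.0786% and 0.0822%, a change of -0.72 ± 0.09. Per miRNA read Quasimodo and mdg3 had values of -0.36 and -0.07, neither of them called. The decreases of gypsy6_new, the F-element, Cr1a and '17.6' were smaller, from -0.34 to -0.19, and became positive per miRNA read. That of '17.6' lost its call without any single siLuc library (adjusted p = 0.0991 to 0.132). At least 86 sense reads of flea and 335 of Quasimodo stood behind the values of the first Gal4 library.

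The largest increases of sense share were those of hopper and the S-element, both DNA transposons. The sense share of hopper was 0.127% and 0.159% in Gal4 and 0.0666%, 0.0686% and 0.0714% in siLuc, a log2 change of 1.05 ± 0.09 (SE, limma adjusted p = 1.3e-06). The S-element, of the Tc1/mariner superfamily, was at 0.0125% and 0.0114% against 0.00589%, 0.00540% and 0.00593%, likewise a change of 1.05. Of 6 DNA transposons tested on this strand 4 were higher and 2 not called, in a table in which 52.6% of elements were higher. Among LTR retrotransposons invader2 rose by 0.93 ± 0.08, Stalker2 by 0.70 ± 0.08, diver by 0.68 ± 0.08 and '1731' by 0.68 ± 0.09. For roo the sense share was 0.198% and 0.208% in Gal4 and 0.117%, 0.120% and 0.121% in siLuc, a change of 0.76 ± 0.06, while its antisense share fell. These 7 elements were higher on all 4 scales.

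The balance of the strands was tested for 79 elements that passed the coverage limit on either strand, by the log2 of antisense over sense coverage. This measure is free of the scaling between libraries. In 11 elements the ratio was higher in Gal4 and in 20 it was lower, together 39.2% of those tested, with 13.9% higher and 25.3% lower, and the groups did not overlap for 57.0% of them. Without Gal4 replicate 1 there were 22 higher elements, without siLuc replicate 1 or 3 there were 5, and without Gal4 replicate 2 there were 38 lower elements. Of the 5 BEL/Pao elements 4 were lower and 1 was not called, whereas of 17 LINE elements 4 were higher, 1 lower and 12 not called.

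McClintock led the decreases with a log2 change of -3.35 ± 0.14 (SE, limma adjusted p = 9.41e-06). The antisense percentage of diver, a BEL/Pao element with mostly sense reads, was 5.51% and 4.54% in Gal4 and 14.4%, 13.8% and 13.0% in siLuc, a change of -1.57 ± 0.15. That of roo was 90.7% and 89.9% against 95.4%, 95.2% and 95.3%, a change of -1.12 ± 0.11 (adjusted p = 0.000463). That of rooA was 92.8% and 94.5% against 97.2%, 97.2% and 96.9%. Antisense reads made up 3.41% and 3.48% of Transpac coverage in Gal4 and 7.29%, 7.30% and 6.74% in siLuc. Changes of about the same size in mdg1, G6 and blood concerned elements that were at least 98.9% antisense in every library. That of G6, at -1.27, rested on at least 7 and 5 sense reads in Gal4, and it was -0.34 with a pseudocount of 10 (adjusted p = 0.0875) and -0.02 with the median over positions (adjusted p = 0.732), not called in either. In mdg1 the sense share was 0.0132% and 0.00656% in Gal4 and 0.00449%, 0.00427% and 0.00545% in siLuc.

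In the other direction flea changed by 2.27 ± 0.10 (SE, limma adjusted p = 9.41e-06), with 99.3% antisense reads in both Gal4 libraries and 96.7%, 96.4% and 96.5% in the siLuc libraries. Quasimodo was 99.0% and 99.3% antisense in Gal4 and 97.9%, 98.1% and 97.9% in siLuc, a change of 1.28 ± 0.17. The G2 percentages were 69.2% and 79.6% against 56.6%, 60.1% and 56.9%, and its call was lost without siLuc replicate 3 (adjusted p = 0.0526). Element '17.6' was 99.0% antisense in both Gal4 libraries against 98.3%, 98.4% and 98.2%, a change of 0.80 ± 0.11. The ratio was also higher for gypsy (0.70 ± 0.17), the I-element (0.56 ± 0.16), the F-element (0.54 ± 0.12) and Idefix (0.46 ± 0.13), for all of which the groups did not overlap. Of these, the F-element lost its call without siLuc replicate 1 or 3 (adjusted p = 0.0517 and 0.0546) and the I-element likewise (0.0669 and 0.0944), and Idefix lost it without any single siLuc library (0.0956 to 0.158). Tirant was also called higher, but its sense coverage was listed at 0 in both Gal4 libraries and rested on at least 2 reads in the first siLuc library. The Gal4 libraries hold fewer reads, so a 0 there cannot decide whether sense coverage changed. This call was lost over all 10 libraries (limma adjusted p = 0.370) and without siLuc replicate 3 (0.0546). Neither ZAM nor mdg3 was called.

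**Figure D3:**
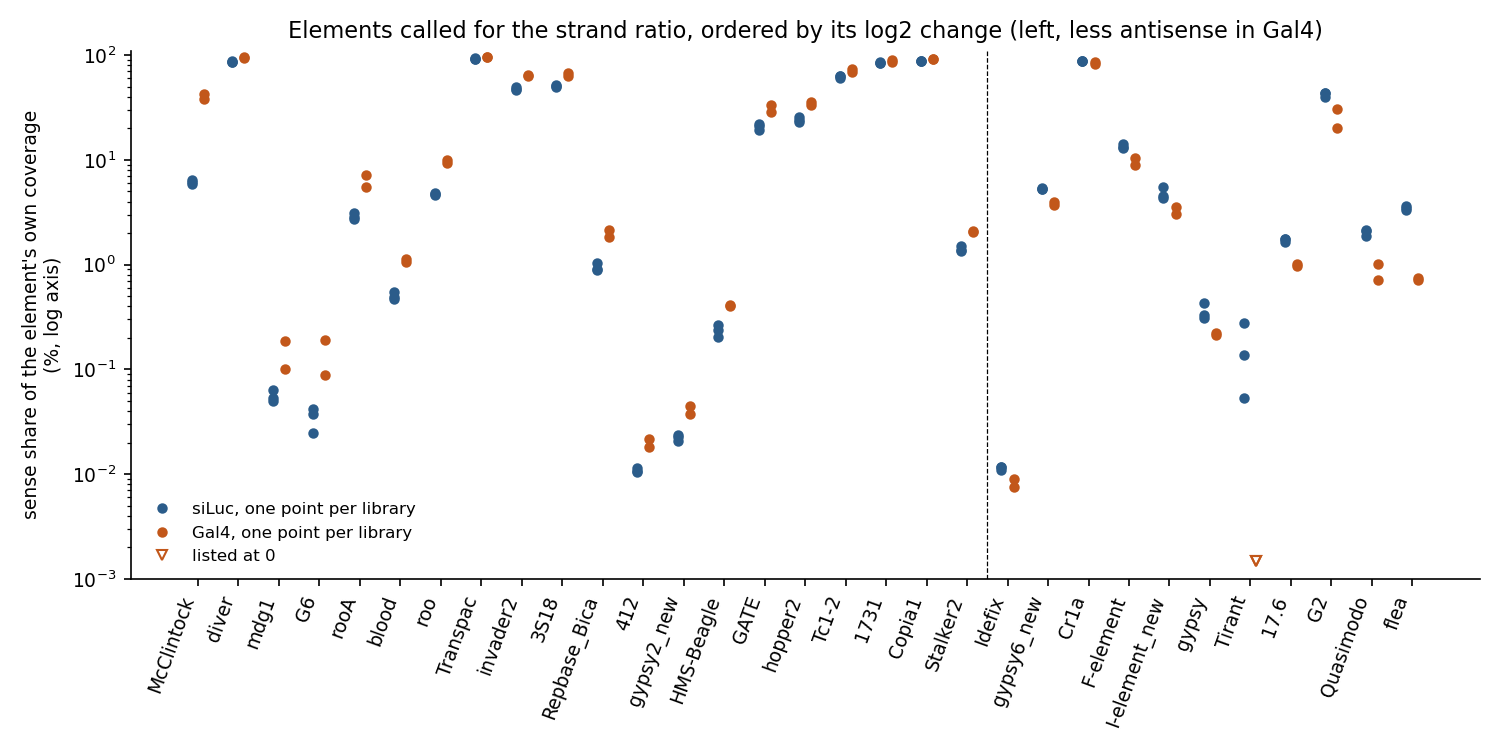
Sense share of an element's own coverage, in percent on a log axis, in each Gal4 and siLuc library for the 31 elements called in the test of the strand ratio, ordered by its log2 change from -3.35 (McClintock) to 2.27 (flea). The dashed line divides the 20 elements with a lower from the 11 with a higher antisense to sense ratio in Gal4, and open triangles mark libraries listed at 0.

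Differences between the groups could be spread evenly along an element or be confined to stretches of it, and 7 elements with changes on 1 or both strands were followed in bins of 200 nt. Coverage in each bin was taken as a share of the library. The elements were chosen for changes of their totals, so bins that separate the groups follow in part from that choice. No count over the bins of all elements is given for this measure. McClintock had lower antisense coverage in Gal4 in all 32 bins of its consensus of 6450 nt, at 0.0937 to 0.329 times the siLuc mean (median 0.162), and in each bin both Gal4 libraries lay below all siLuc libraries. Its sense reads were piled up near both ends. Position 1 to 200 held 40.1% and 39.7% of them in Gal4 and 38.1%, 36.9% and 36.0% in siLuc, and position 6001 to 6200 held 42.9% and 43.0% against 41.5%, 40.9% and 40.5%. Sense coverage was 1.89 times the siLuc mean at the first of these sites and 1.84 times at the other. Antisense coverage was thus lower along the whole element, and the sense reads of both groups lay at the same sites.

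In flea, sense coverage was below the siLuc mean in all 25 bins, with a median of 0.304, and both Gal4 libraries lay below all siLuc libraries in 22 of them. Antisense coverage of flea was above the siLuc mean in 24 of 25 bins, with a median of 1.42. Sense coverage of Quasimodo varied along the element, from 0.188 to 1.19 times the siLuc mean over 37 bins, with its interior lower and its ends about equal. In roo sense coverage was higher in all 45 bins, at 1.26 to 2.34 times siLuc, whereas antisense coverage was lower in 36 bins and higher in 9. The 9 bins with higher antisense coverage of roo lay at position 1 to 400, 6801 to 7600 and 8401 to 9092, with the highest ratio of 1.53 at position 8401 to 8600. The middle stretch had few piRNAs. At position 6801 to 7600 coverage was 1.34 times the siLuc mean as a share of the library, and relative to the element mean it was 0.232 and 0.226 in Gal4 and 0.130, 0.136 and 0.133 in siLuc. In hopper and in the S-element, sense coverage was above siLuc in every bin, with medians of 2.17 and 2.30. Sense coverage of mdg3 was lower in 26 of 28 bins.

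**Figure D4:**
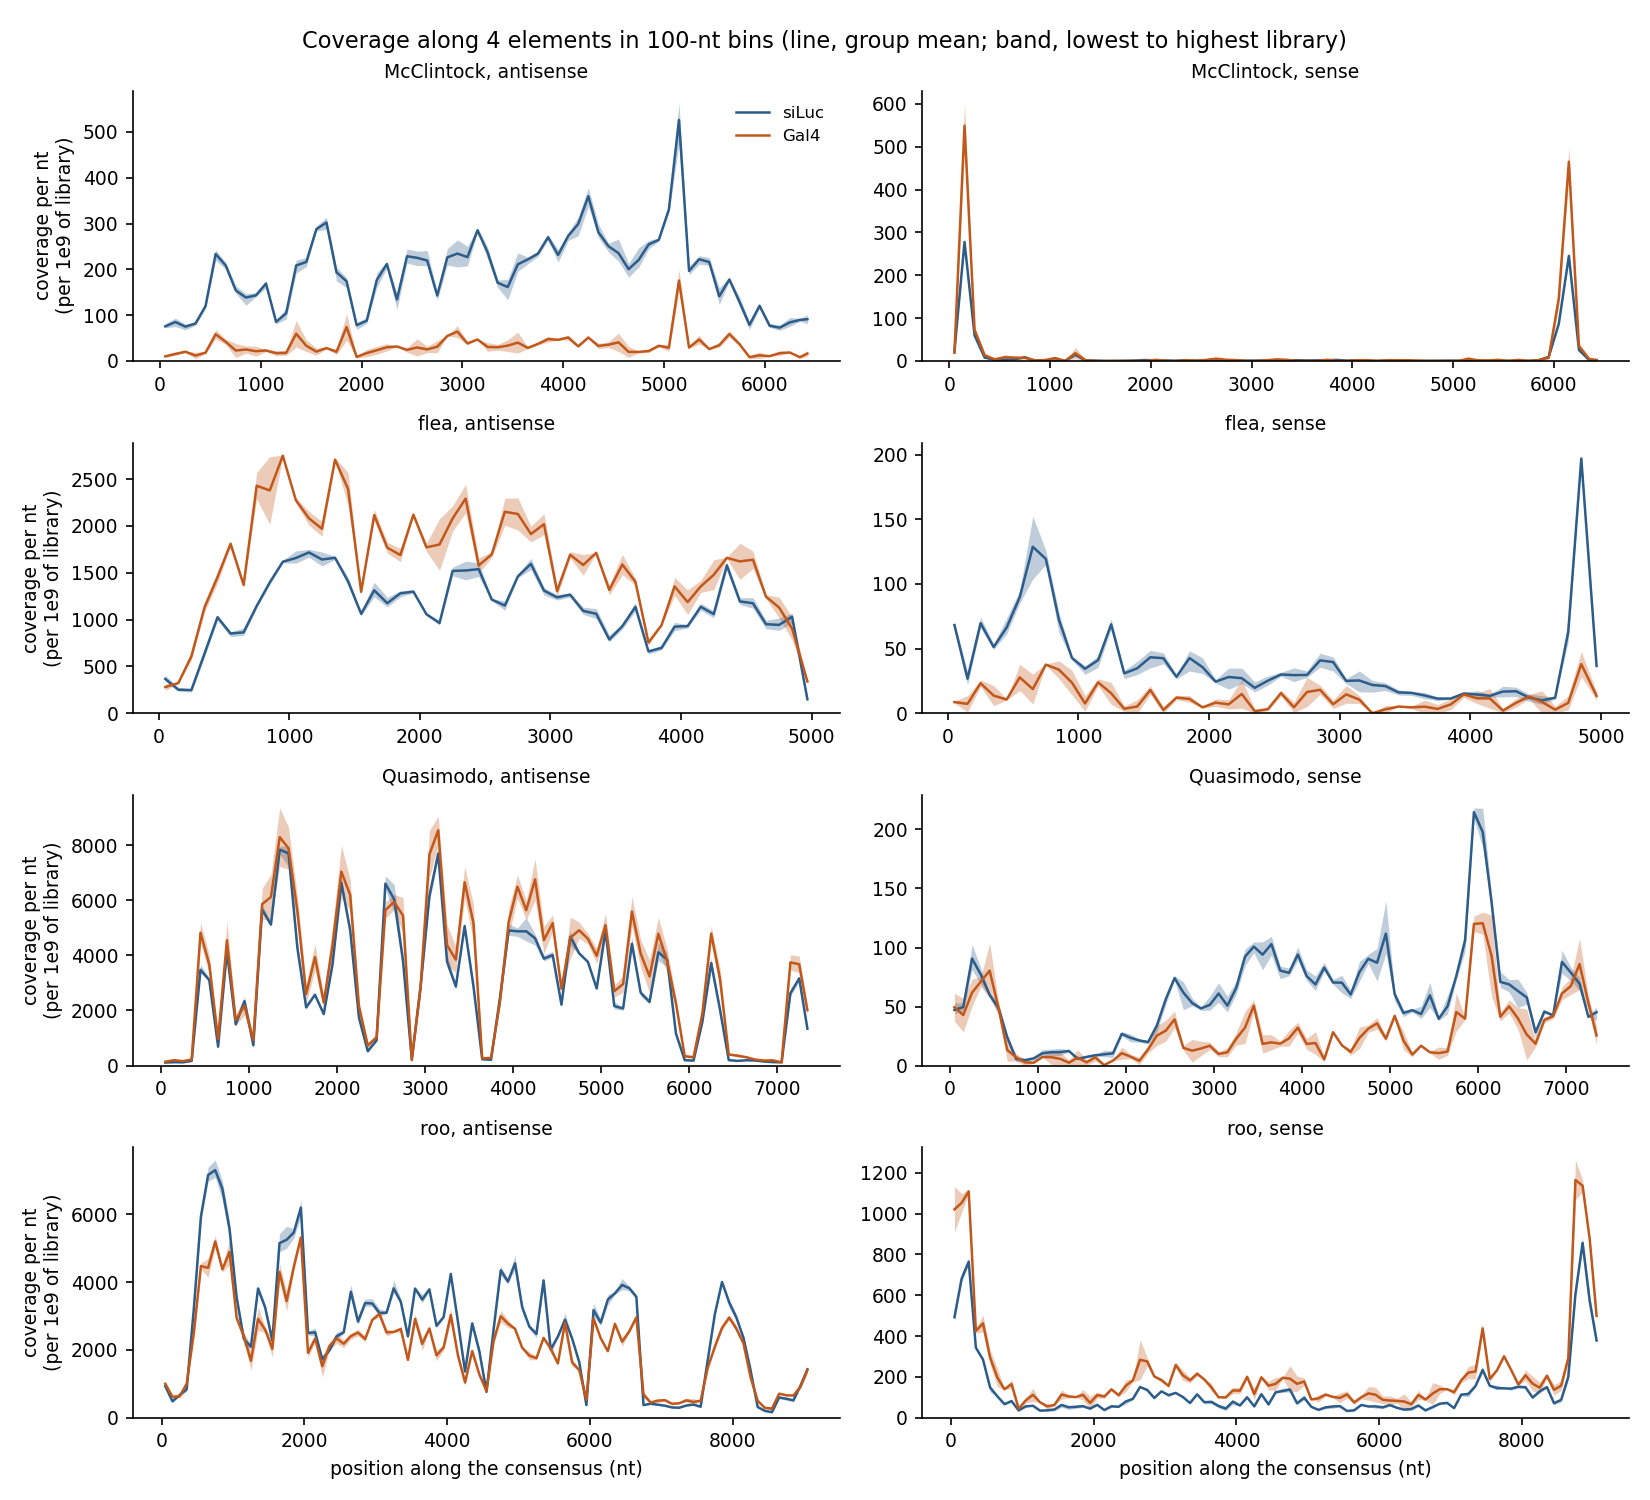
Coverage per nt in bins of 100 nt along the consensus of McClintock, flea, Quasimodo and roo on the antisense (left) and sense (right) strand, per 1e9 nt of transposon coverage of the library, with the group mean as a line and the range of the libraries as a band. Antisense coverage of McClintock is low in Gal4 from end to end while its sense reads form taller peaks at both ends, and sense coverage of Quasimodo is lower mainly in its interior.

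Profile shape was then tested for all elements with coverage of each bin of 100 nt taken relative to the mean of its element and library, which removes changes of total. On the antisense strand 736 of 2983 bins were higher and 661 lower in Gal4, 46.8% in all, with 24.7% higher and 22.2% lower. On the sense strand 203 of 1236 bins were higher and 146 lower, 28.2% in all, with 16.4% higher and 11.8% lower. The groups did not overlap in 65.4% of antisense and 55.0% of sense bins. Neighbouring bins share reads and are not independent. The number called depended on the libraries in the fit. With all 10 libraries, which adds those with altered piRNA production to the estimate of the spread, 310 and 277 antisense bins and 45 and 24 sense bins were called. Sense bins called higher fell to 127, 107 and 117 without siLuc replicate 1, 2 and 3 and numbered 348 and 372 without Gal4 replicate 1 and 2, and those called lower numbered 60, 58, 57, 294 and 339 in the same order. Most changes were modest, since 85.0% of antisense and 79.3% of sense bins differed by less than 0.5 on the log2 scale. Only 41 antisense bins in 21 elements and 35 sense bins in 10 elements were called with a change beyond 1.

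The elements with the most called antisense bins were abundant ones with deep coverage, namely roo with 62 of 91, '412' with 56 of 76, '17.6' with 55 of 74, Stalker with 50 of 73, Idefix with 49 of 74 and Stalker2 with 46 of 77. Fitted over all 10 libraries these counts were 36, 36, 34, 28, 29 and 18. In '412' the largest change was at position 801 to 900, where relative coverage was 0.131 and 0.120 in Gal4 and 0.0711, 0.0731 and 0.0678 in siLuc. In '17.6' it was a decrease at 1401 to 1500, from 1.52, 1.71 and 1.69 in siLuc to 0.910 and 0.994. In Idefix it was a decrease at 2901 to 3000, from 1.66, 1.73 and 1.85 to 1.03 and 1.13. In roo it was an increase at 6701 to 6800, from 0.135, 0.149 and 0.139 to 0.369 and 0.288, a log2 change of 1.21 ± 0.11. For Stalker relative coverage at 801 to 900 was 0.313 and 0.350 in Gal4 against 0.576, 0.527 and 0.559. For Stalker2 it was 0.616 and 0.628 at the 3′ end, position 7601 to 7672, against 0.380, 0.365 and 0.348. On the sense strand springer had 55 of 75 bins called, gypsy12 and Transpac 25 each and copia 23. Over all 10 libraries these were 22, 0, 7 and 6. The count for gypsy12 was 5 to 7 without a siLuc library and 48 without Gal4 replicate 2, and that for copia was 14 without siLuc replicate 2 and 15 without siLuc replicate 3. The decreases of Quasimodo were the deepest on this strand, and at position 4201 to 4300 relative coverage was 0.232 and 0.123 in Gal4 against 1.38, 1.42 and 1.42 in siLuc.

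A distance between profiles was taken as the share of an element's coverage that would have to move to turn one profile into the other. Over 66 elements the median antisense distance was 9.19% between a Gal4 and a siLuc library, 3.04% between siLuc libraries and 5.58% between the Gal4 libraries. It was larger between the groups than within either group for 49 of 66 elements. On the sense strand the medians were 11.3%, 3.71% and 9.19% for 38 elements, of which 30 had the larger distance between the groups. The correlation of profiles across bins had a median of 0.91 and a range of 0.36 to 1.00 on the antisense strand, lowest for invader2, and a median of 0.96 and a range of 0.62 to 1.00 on the sense strand, lowest for flea. Bins of a profile are not independent replicates.

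The largest excess of the distance between groups over that within a group was found for gypsy11, GATE and the I-element. For gypsy11 the distance was 18.9% between the groups, 3.57% within siLuc and 5.61% within Gal4. Relative antisense coverage of gypsy11 was 3.70 and 3.84 in Gal4 and 1.53, 1.55 and 1.42 in siLuc at position 201 to 300, and 3.59 and 4.06 against 1.50, 1.60 and 1.38 at position 4201 to 4300. At 801 to 900 it was 0.101 and listed at 0 in Gal4 and 0.354, 0.376 and 0.452 in siLuc. The total antisense share of gypsy11 was not called, with overlapping values of 0.0372% and 0.0413% against 0.0368%, 0.0353% and 0.0380%. GATE had 20.1% between the groups, 3.96% within siLuc and 10.9% within Gal4. In the I-element the distance was 14.6% against 3.23% and 5.55%, and its profiles correlated at 0.55. Coverage of the I-element was higher at 1601 to 1700 (1.03 and 0.911 against 0.453, 0.462 and 0.375) and lower at 5201 to 5300 near its 3′ end (0.445 and 0.354 against 0.971, 1.04 and 1.18).

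**Figure D5:**
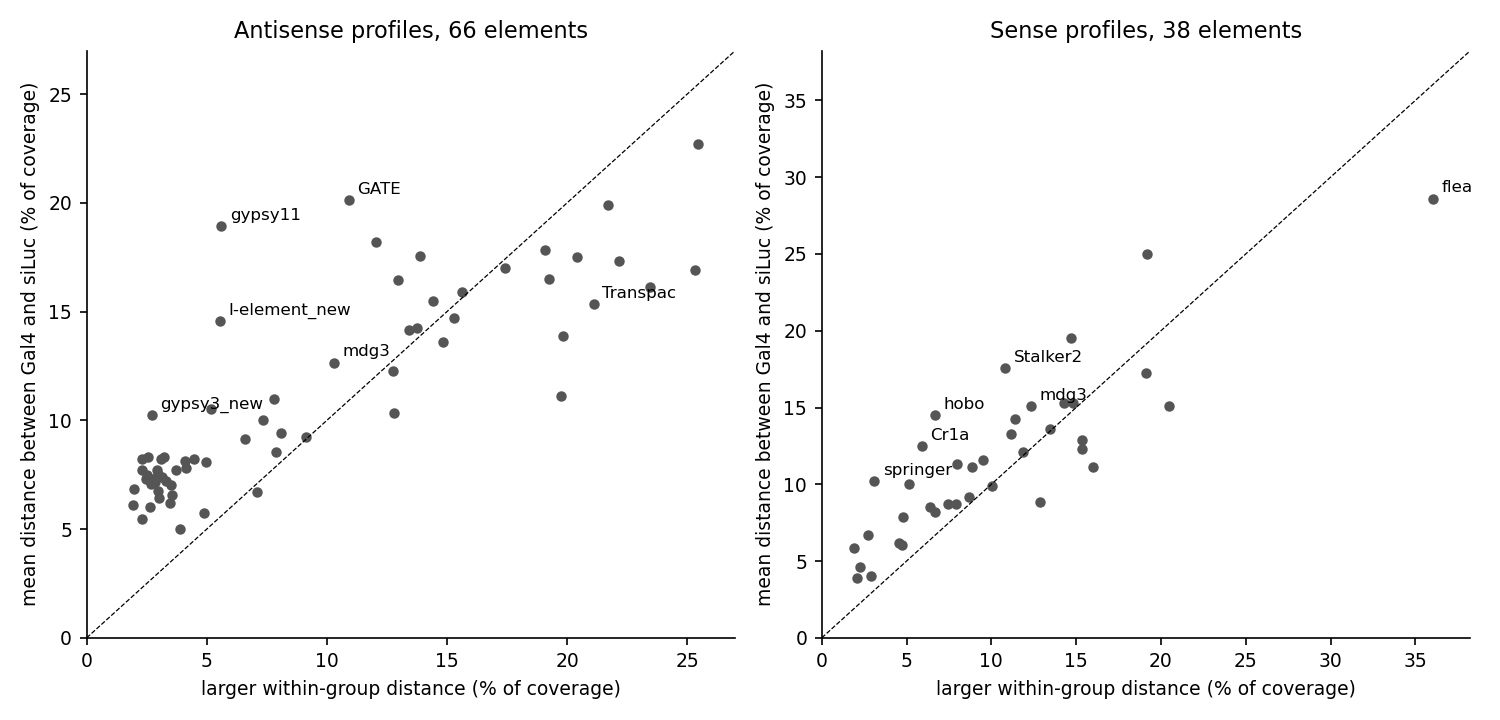
Mean distance between the profiles of a Gal4 and a siLuc library against the larger of the distances within siLuc and within Gal4, both in percent of an element's coverage in bins of 100 nt, for 66 elements on the antisense and 38 on the sense strand. Points above the dashed line of equality are the 49 antisense and 30 sense elements that differed more between the groups than within them, with gypsy11, GATE and I-element_new farthest above it on the antisense strand.

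For 29 elements with a siLuc antisense mean of at least 220 per nt, the positions with coverage above 10% of the element's mean were compared. In many of these elements nearly all positions passed this limit in both groups, as in gtwin with 99.7% in Gal4 and 99.8% in siLuc on average, so that a high overlap was given there. The overlap of covered positions between a Gal4 and a siLuc library, as a percentage of positions covered in either, had a median of 98.9% and a range of 90.9% to 99.9%. Within siLuc the median was 99.6% and within Gal4 99.3%, and the overlap between the groups was lower than that within either group for 23 of 29 elements. The lowest overlaps were those of Quasimodo at 90.9% and of jockey2 at 91.4%, and in both the Gal4 libraries overlapped each other by no more than that, at 90.1% and 87.6%. For roo 97.8% of positions were covered in Gal4 and 92.6% in siLuc on average, and 293 of its 9092 positions were covered in both Gal4 libraries and in no siLuc library.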

How the data were processed

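Argonaute-bound small RNAs were isolated on TraPR columns and sequenced. The authors removed adaptors with cutadapt, kept reads of 24 to 35 nt and aligned them with Bowtie to RepBase-based transposon consensus sequences with up to 2 mismatches, leaving out reads that align to more than 1 consensus, which lowers elements of shared sequence. The deposited coverage signal per position is scaled to 1000000 miRNA reads, and antisense values, stored as negative numbers, were used by their size. HOMER is also named in the submitters' processing notes. In the tethering libraries the 3′ adaptor had no barcode and fewer random bases.

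Coverage was summed per element, strand and library and divided by the library's total over both strands. Shares were tested as log2(share in parts per 1000000 + 1). Strands were tested as the log2 ratio of the antisense to the sense share, with 1 part per 1000000 added to each. Bins were tested as log2 ratios with 1 coverage unit added. These tests used limma 3.58.1 (R 4.3.3) with a trend on the level, for elements, and bins, with a siLuc mean of at least 10. Library values were compared by exact permutation in Python 3.11.15. The fits were tested on simulated data. All simulated libraries had the same spread, so this does not cover the larger difference between the Gal4 libraries. A count model was not used because coverage is not a count, and reads "at least" are coverage divided by a read of 35 nt. The depth limits low elements, and intervals for counting were not computed.

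Named elements are the 5 highest in antisense and 3 highest in sense share in siLuc, a fixed list of 14, up to 8 increases and 8 decreases per test past 0.05 without overlap, those with the most called bins (6 antisense, 4 sense), the 3 largest distance excesses and the 2 lowest overlaps. Stretches of a profile, Repbase_FB4, invader1, Repbase_Chimpo, G6 and the elements of the closing observations were chosen after their values were seen. Members, lists and tests were chosen with earlier results of these data known. Alternatives were other pseudocounts, filters, scalings, bin widths, the median over positions, no trend, all 10 libraries, a replicate block and each library left out.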

Additional observations from a re-analysis of the deposited data

How the results depend on the processing

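Under all alternatives, 989 of the values and bin counts of the named elements kept their direction and side of the threshold. Another 57 kept the direction and lost the call, 5 gained one and 27 changed sign. Counts of bins moved by over 1.5 times in 44 cases. Of these, 10 came with bins of 200 nt and 9 with bins of 50 nt, where the number of bins tested also changes. Cause of any shift with scaling, filter or library was not tested. Depth limits low elements most in the Gal4 libraries, which have fewer reads. All p-values in this section are limma's, adjusted.

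Antisense shares (32 higher, 16 lower) gave 15 and 10 with a siLuc mean of at least 100, 19 higher with median-ratio scaling, 50 and 1 per 1000000 miRNA reads, and 15 higher with the median over positions. Leaving out 1 library gave 20 to 44 higher and 12 to 17 lower. Sense shares (20 and 7 of 38) gave 54 and 11 of 121 without a filter. With a siLuc mean of at least 100 they gave 7 and 2 of 11. Among the same 38, 11 were higher as shares of the same strand or with median-ratio scaling. Per miRNA read 31 were higher and 1 lower. Leaving out 1 library gave 15 to 27 and 6 to 7. For the strand ratio (11 and 20 of 79) the median over positions gave 25 higher. A siLuc mean of at least 100 gave 11 lower of 42. Leaving out 1 library gave 5 to 22 and 17 to 38. Antisense bins (736 and 661 of 2983) numbered 1377 and 1245 of 5867 at 50 nt and 386 and 344 of 1518 at 200 nt. Over all 10 libraries 310 and 277 of 2983 were called. With 1 library left out the counts were 525 to 923 and 463 to 844. Sense bins (203 and 146 of 1236) numbered 340 and 238 of 2449 at 50 nt and 129 and 95 of 628 at 200 nt. For bins with a siLuc mean of at least 100 they numbered 131 and 79 of 384. Over all 10 libraries 45 and 24 of 1236 were called. With 1 library left out the counts were 107 to 372 and 57 to 339. The median profile distance of 9.19% was 11.2% at 50 nt, 6.76% at 200 nt, 7.49% with a siLuc mean of at least 100 and 8.79% to 9.37% with 1 library left out. The median overlap of covered positions was 99.4% and 98.2% with limits of 5% and 20%, and 98.9% to 99.0% with 1 library left out. The differences in antisense percentage and in the share of the 10 highest elements ranged from -1.62 to -1.01 and from -3.57 to -0.96 percentage points.

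Per 1000000 miRNA reads, antisense changes of '412' (0.26), HMS-Beagle (0.50), Helena (0.12), Transpac (0.18), gtwin (0.24), gypsy2_new (0.16), mdg1 (0.32), mdg3 (0.012), roo (0.29) and rooA (0.074) and sense changes of '17.6' (0.44), Cr1a (0.42), the F-element (0.37) and gypsy6_new (0.30) were positive. With the median over positions the antisense share of Helena was 0.33, the sense share of Stalker2 -2.56 and the strand ratio 2.67 for '412', 3.62 for HMS-Beagle, 4.59 for mdg1 and 4.34 for rooA, and Tirant gave no value. That setting also ended the calls of the antisense shares of G2, the S-element, copia and transib4, of the sense shares of '17.6', Cr1a, the F-element and gypsy6_new, and of the strand ratios of G2, G6 and gypsy. Over all 10 libraries the antisense share of HMS-Beagle, the sense shares of '17.6', Cr1a and Doc and the strand ratios of the I-element, Idefix and Tirant were not called. The antisense share of springer was -0.13 with median-ratio scaling, 0.15 and past the threshold without Gal4 replicate 1, -0.11 without Gal4 replicate 2 and -0.02 without siLuc replicate 1. Its sense share was -0.16 of the same strand and -0.20 with median-ratio scaling, both called, and -0.022 without Gal4 replicate 1, but it was called higher per 1000000 miRNA reads (0.70), with the median over positions (0.27) and without Gal4 replicate 2 (0.12). Its antisense share was also called higher per miRNA (0.65). The sense share of Doc was -0.041 with median-ratio scaling.

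The groups share replicate numbers but come from separate experiments. Deviations of same-numbered libraries correlated at 0.45 and 0.62 on the antisense and 0.29 and 0.31 on the sense strand, and these 2 values are not independent, since 2 Gal4 libraries deviate as mirror images. With the replicate number as a block, 53 sense bins were called higher and 21 lower, and the other counts over all elements stayed within 1.5 times. Among named elements 4 calls were lost with the block, namely (limma adjusted p) the antisense share of HMS-Beagle (0.0885), the sense share of '17.6' (0.295) and the strand ratios of the I-element (0.143) and Idefix (0.0781), and 4 counts of sense bins fell, to 30 for springer, 0 for gypsy12, 12 for Transpac and 11 for copia.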

Other observations

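Several elements had a siLuc coverage below 10 per nt and a Gal4 coverage at or above it, and were left out of the tests of shares for that reason. There were 9 of these on the antisense strand, where the ratio of the Gal4 to the siLuc share ran from 1.00 to 1.89 with a median of 1.22, and 17 on the sense strand, where it ran from 0.80 to 2.38 with a median of 1.51. Since they had to be higher in Gal4 per miRNA read to be in this set, the values are a description. Those named here were chosen after their values were seen.

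The sense reads of blood, a gypsy superfamily element, made up 0.0314% and 0.0330% of transposon coverage in Gal4 and 0.0131%, 0.0126% and 0.0148% in siLuc. For '297' of the same superfamily the sense shares were 0.0206% and 0.0186% in Gal4 and 0.0127%, 0.0130% and 0.0154% in siLuc. Among DNA transposons, hopper2 was at 0.00622% and 0.00587% against 0.00250%, 0.00278% and 0.00261%, and mariner2 at 0.00270% and 0.00279% against 0.00135%, 0.00131% and 0.00119%. The element hopper, higher on the sense strand, was at 0.00538% and 0.00452% of coverage as antisense reads in Gal4 and 0.00269%, 0.00257% and 0.00259% in siLuc. Both Gal4 libraries lay above all siLuc libraries in each of these picked cases. Other members of the set went the other way. Sense shares of gypsy, Tc3 and G2 lay below all siLuc libraries in both Gal4 libraries, at ratios of 0.80, 0.85 and 0.86.

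The strand balance of flea in the other libraries lay near that of the control of the same experiment. Antisense reads made up 99.2% and 99.3% of flea coverage in the Gal4-Panx-IDR libraries and 95.2%, 95.9% and 95.0% in the siArmi libraries.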
